A study of Danio rerio with 4 samples.

Results

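Translation initiation factors and the proteins that bind, shorten or extend the poly(A) tail of mRNA were compared between wild-type zebrafish embryos and embryos without Eomesodermin a (Eomesa), a T-box transcription factor that the mother deposits in the egg. Members were taken by gene symbol alone, as every gene whose name begins with *eif* and a digit, *cpeb*, *pabp*, *igf2bp*, *cnot*, *pum*, *pan2* or *pan3*, *dcp1* or *dcp2*, *ybx1* or *tut*. This gave 111 of the 32468 genes listed, of which 71 were placed among activators of translation, 35 among factors of mRNA decay and repression, and 5, the Igf2bp genes and *ybx1*, in a class of their own. The listed spans of 13 members overlap those of other genes, which makes their values less certain. The symbols are older ones, and 5 of the 71, named *eif2c*, are Argonaute genes whose products bind small RNAs and are not initiation factors. Also among the 71 are the genes of eIF4E2, which acts as a repressor, and *EIF1AD*, classed by its symbol alone. The Cpeb genes, whose products can act in either direction, were all placed with decay and repression.

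RNA came from whole embryos at sphere stage, wild-type in 1 group and MZ*eomesa* in the other, with 2 samples in each. The wild-type embryos were of the AB strain, and the mutants, labelled AB as well, carry the *fh105* allele of *eomesa*. The mutants were produced by *in vitro* fertilization between homozygous parents, so that both the maternal and the zygotic supply of Eomesa are missing. For part of its work the study used embryos lacking only the maternal supply instead, but the labels of these samples name MZ*eomesa*. A single allele was used, and how many embryos went into a sample, and whether the groups came from related parents, is not given in the sources used here. Expression is given as FPKM, a read density corrected for transcript length and library size, which allows levels to be compared between genes, and each group has 1 value per gene in which its 2 samples are combined. No value therefore carries a replicate error, and the depth is unknown. No test between the groups was made, since the table analysed gives no value per sample, and the p-values it lists from the authors' own comparison were not used. A gene is described as differing where its FPKM was at least 1.5-fold higher or lower in MZ*eomesa* embryos and its mean over both groups was at least 1 FPKM, a limit of size and not of significance.

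Before the embryo transcribes its own genome it lives on mRNA stored in the egg, and at sphere stage much of that store is being cleared while zygotic genes are switched on. Translation of most mRNAs starts when the cap is bound by eIF4E, which with the scaffold eIF4G and the helicase eIF4A forms eIF4F. eIF2 brings the initiator tRNA to the small ribosomal subunit, which eIF3 holds at the mRNA. Poly(A)-binding protein on the tail contacts eIF4G, so that a long tail favours translation, whilst the Ccr4-Not and Pan2-Pan3 deadenylases shorten the tail and Dcp2 with Dcp1 then removes the cap.

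The *eomesa* gene itself was listed at 62.6 FPKM in wild-type against 1.52 FPKM in MZ*eomesa* embryos. Of the markers fixed for this tissue, the 4 yolk syncytial layer genes summed to 94.9 FPKM in wild-type against 8.35 FPKM in MZ*eomesa* embryos. This sum was led by *mxtx2* at 73.9 and 6.23 FPKM and *mxtx1* at 17.9 and 1.47 FPKM. The other genes in it, *hnf4a* and *slc26a1*, were weak and also below wild-type. The 8 rows for enveloping layer genes, a sum led by *krt18*, came to 286 and 529 FPKM. The *krt18* estimate was marked by the authors' software as failed. The 7 early zygotic genes found summed to 582 and 1023 FPKM, a sum led by *apoeb* at 233 and 641 FPKM. Of the others, *aplnrb*, *her3* and *irx7* were above wild-type, *nnr* was level, and *vox* and *vent* were below. The 6 oocyte genes summed to 1156 and 952 FPKM, a sum led by *h1m* at 861 and 731 FPKM. Here *buc*, *ca15b* and *zar1* were also below wild-type, *btg4* was level and *dazl* was above. None of the listed markers was at 0. Their part in the results was not tested. In whole embryos, fewer cells of a type and less RNA per cell cannot be told apart, and in libraries of poly(A) RNA neither can fewer transcripts and shorter tails.

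As a set, these genes were highly expressed and close to equal in both groups. In wild-type embryos 88 of the 111 members (79.3%) had at least 10 FPKM, as did 23.6% of all genes listed, and 26 had at least 100 FPKM. The highest were *EIF1B* at 909 FPKM, which encodes an eIF1 that keeps the scanning ribosome open to the next codon, *pabpc1a* at 590 FPKM, the cytoplasmic poly(A)-binding protein, and *eif4a1a* at 410 FPKM, the eIF4A helicase. Their MZ*eomesa* values were 1026, 741 and 371 FPKM. All members together made up 1.67% of the FPKM sum of the table in wild-type against 1.72% in MZ*eomesa* embryos.

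Of the 104 members with a mean of at least 1 FPKM, 5 were at least 1.5-fold higher in MZ*eomesa* embryos, against 12.2% of all 14845 genes above the same minimum, and 7 were at least 1.5-fold lower, against 10.5% of all genes. The median size of the log2 ratio, regardless of direction, was 0.18 over the members and 0.28 over all genes. This depended on level. At a mean of 10 FPKM or more it was 0.15 over the members and 0.22 over all genes. From 1 to under 10 FPKM it was larger over the 16 members, at 0.62, than over all genes, at 0.38. With a 2-fold limit 1 member remained on the higher side, where 5.40% of all genes lay, and 0 on the lower side, where 3.80% of all genes lay. The log2 ratio, given throughout as MZ*eomesa* over wild-type, had a median of 0.06 for the 68 activators above the minimum and 0.10 for the 32 decay and repression factors, beside -0.01 for all genes. Moving the Argonaute genes to the second class left these medians at 0.06 and 0.10. The eIF4E2 and Cpeb genes were not moved, so the medians describe classes made by symbol.

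**Figure D1:**
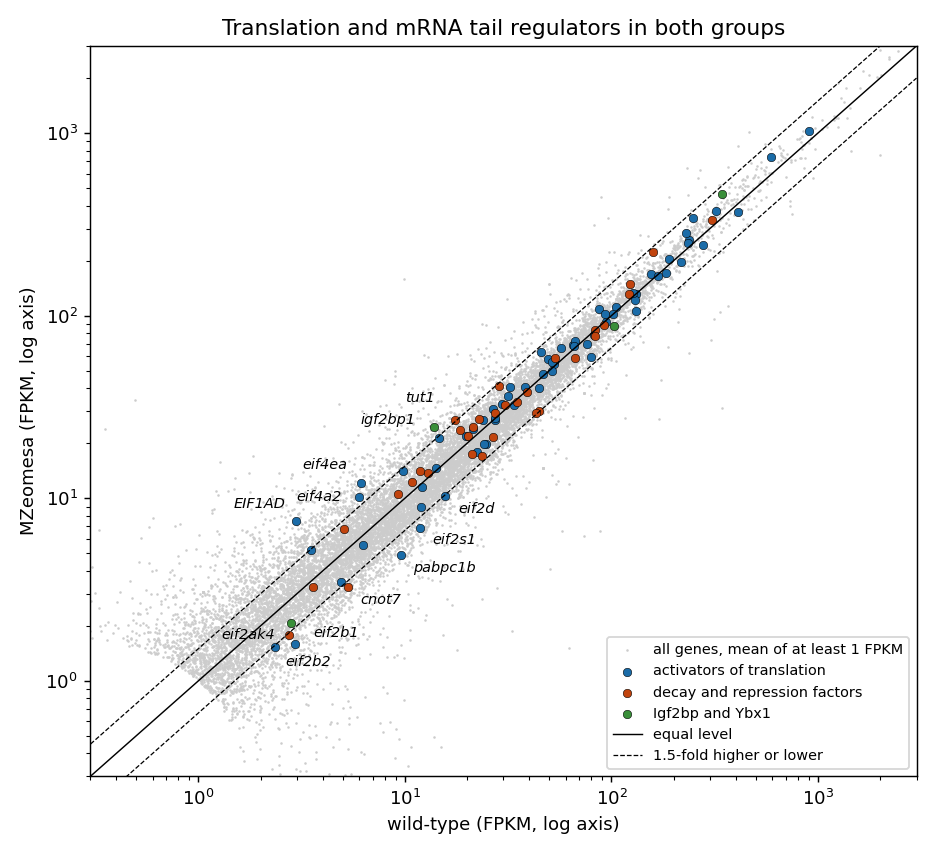
FPKM of each gene in wild-type (x axis) and MZ*eomesa* embryos (y axis), both on log axes; each point is 1 gene with its combined group value, grey for all genes and coloured for members, with the 12 members at least 1.5-fold apart named. Members at 100 FPKM and more keep between the dashed lines, and those outside lie towards the lower left.

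Most of the members that differed were expressed at a low level. At a mean of 10 FPKM or more, 3 of 88 members lay at least 1.5-fold apart in either direction, where 13.1% of all genes at that level did. From 1 to under 10 FPKM the count was 9 of 16 members, where 32.5% of all genes at that level did. None of the 22 members from 50 to under 100 FPKM and none of the 25 at 100 FPKM or more differed by 1.5-fold. Of all genes at these levels, 8.23% and 9.34% did. The 25 members with a mean of at least 100 FPKM had a median log2 ratio of 0.10, beside 0.09 for the 1006 genes of the table at that level, so that a small excess in MZ*eomesa* embryos among the strongest members is shared by other strongly expressed genes.

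Among the cap-binding genes, 6 of 7 were within 1.5-fold, where 22.6% of all genes above the minimum were not. These 6 had means of at least 10 FPKM, a level at which only 13.1% of all genes lay outside. The strongest, *eif4e1c*, had 238 FPKM in wild-type against 259 FPKM in MZ*eomesa* embryos. *eif4e1b*, a form known from oocytes, had 64.8 and 69.1 FPKM in a span shared with 3 genes, and *eif4eb* had 38.0 and 40.9 FPKM. The exception was *eif4ea* (ENSDARG00000077012, chromosome 14, 45820488 to 45829413), with 6.15 FPKM in wild-type against 12.1 FPKM in MZ*eomesa* embryos, 1.96-fold higher. It is the weakest of the 7 in both groups. The genes of eIF4E2, which binds the cap without binding eIF4G and so acts as a repressor, stood level, *eif4e2* at 27.2 and 26.9 FPKM and *eif4e2rs1* at 52.8 and 55.4 FPKM, as did *eif4e3* at 44.8 and 40.3 FPKM.

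The helicases gave the same picture. *eif4a1a* supplied 87.6% of the FPKM of the 3 initiation helicase genes in wild-type against 84.9% in MZ*eomesa* embryos, and *eif4a1b* had 51.8 and 56.0 FPKM. The span listed for *eif4a1a* is shared with 2 other genes, so its value and its share are less certain. *eif4a2* (ENSDARG00000016477, chromosome 2, 7500003 to 7511589) had 6.02 FPKM in wild-type against 10.2 FPKM in MZ*eomesa* embryos, 1.69-fold higher, but its listed span is shared with 2 small nucleolar RNA genes and its value is uncertain. *eif4a3*, whose product sits in the exon junction complex rather than at the cap, had 236 and 251 FPKM and shares its span with 14 genes.

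None of the 7 eIF4G genes reached 1.5-fold, though 6 of 7 were above their wild-type level. Of all genes above the minimum 22.6% did, but only 13.1% of those with a mean of at least 10 FPKM, as all 7 had. *eif4g2b* and *eif4g2a*, which encode the form without an eIF4E-binding site, were far above the rest, at 322 and 230 FPKM in wild-type against 376 and 284 FPKM in MZ*eomesa* embryos. The span of *eif4g2b* is shared with 1 gene. The 3 copies named *EIF4G1*, the classical scaffold, summed to 48.4 and 62.1 FPKM (log2 ratio 0.36), and the weaker pair among them had log2 ratios of 0.53 and 0.55, close to the limit. *eif4g3*, at 51.7 and 49.6 FPKM, was the 1 gene of the group below its wild-type level. *eif4ba*, *eif4bb* and *eif4h*, which stimulate the helicase, had log2 ratios of 0.23, 0.05 and -0.03.

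**Figure D2:**
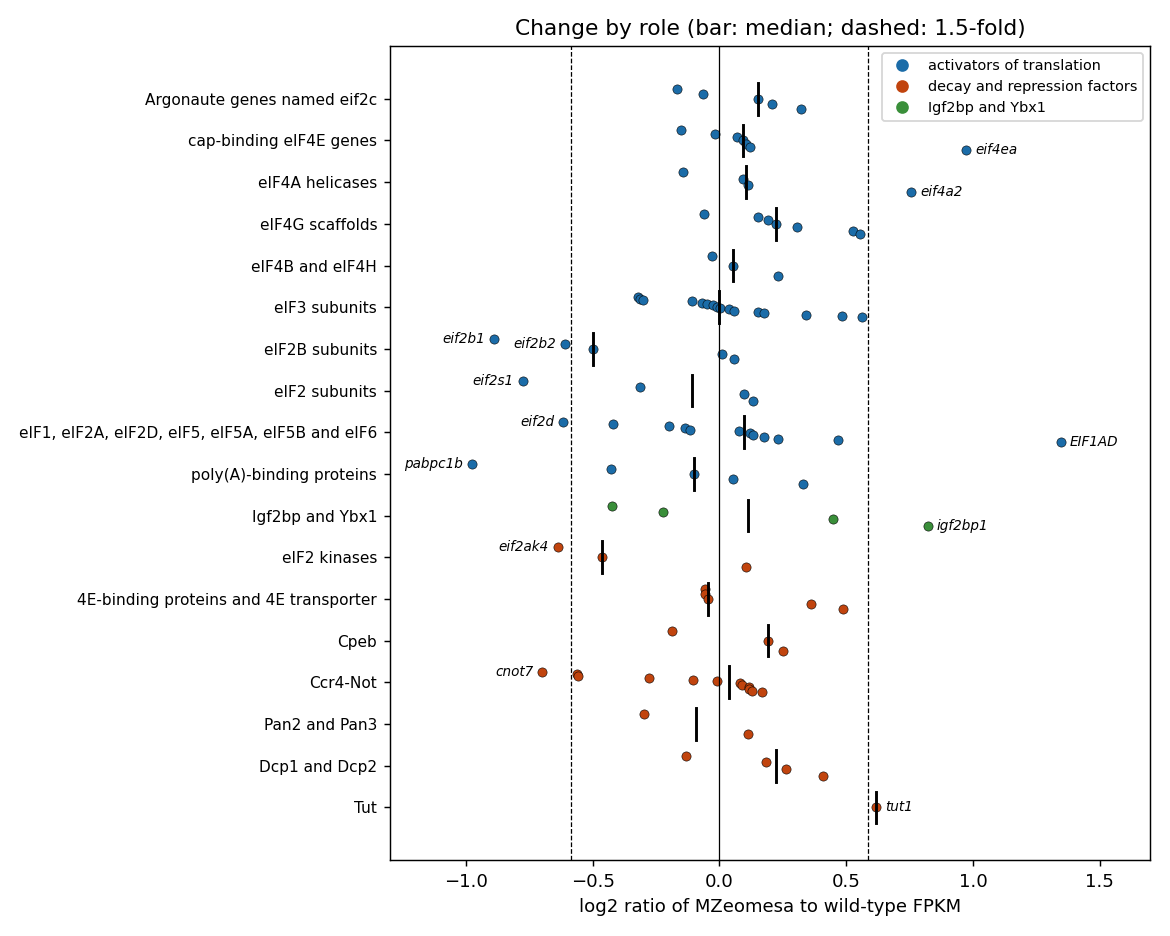
Log2 ratio of FPKM, MZ*eomesa* over wild-type (x axis) for the members above the minimum, the Pumilio family left out, in rows by role; each point is 1 gene, the short bar is the median of the row and dashed lines mark 1.5-fold. Most points lie near 0, the row medians of eIF2B and of the eIF2 kinases lie to the left at -0.50 and -0.46, and *EIF1AD* lies farthest to the right at 1.35.

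eIF2, the carrier of the initiator tRNA, has 3 subunits, and all were abundant. The alpha subunit, at which stress kinases act, is encoded by a pair of genes. *eif2s1l* had 191 FPKM in wild-type against 204 FPKM in MZ*eomesa* embryos, whereas *eif2s1* (ENSDARG00000052178, chromosome 20, 51439077 to 51457976) had 11.8 and 6.89 FPKM, 1.71-fold lower. Summed, alpha stood at 203 and 211 FPKM, since *eif2s1l* held 94.2% of the wild-type sum. The beta subunit gene *eif2s2* had 66.4 and 72.7 FPKM and the gamma subunit gene *eif2s3* had 131 and 105 FPKM.

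eIF2B recharges eIF2 with GTP after each round, and its 5 subunits were far less even. In wild-type embryos *eif2b4* (delta) had 27.3 FPKM and *eif2b5* (epsilon, the catalytic subunit) 14.1 FPKM, while *eif2b3* (gamma) had 4.92 FPKM, *eif2b1* (alpha) 2.94 FPKM and *eif2b2* (beta) 2.35 FPKM. The higher pair was equal in both groups, with log2 ratios of 0.01 and 0.06. The lower 3 were all below wild-type. *eif2b1* (ENSDARG00000091402, chromosome 5, 72581786 to 72589323) had 1.59 FPKM in MZ*eomesa* embryos, 1.85-fold lower, and *eif2b2* (ENSDARG00000041397, chromosome 20, 46743171 to 46785176) had 1.54 FPKM, 1.52-fold lower, whereas *eif2b3*, at 3.48 FPKM and a log2 ratio of -0.50, stayed inside the limit. A further *eif2b1* row (ENSDARG00000088185), also on chromosome 5, had 0.681 and 0.428 FPKM, under the minimum. *eif2b2* shares its span with another gene. Levels in this range vary more over the whole table, and 36.5% of all genes between 1 and 5 FPKM were at least 1.5-fold apart.

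All 13 subunits of eIF3, which bridges mRNA and ribosome, were represented, and none differed once its gene copies were summed. None of its 16 single genes above the minimum differed either. Of all genes above the minimum 22.6% did, but only 12.5% from 20 to 50 FPKM, 8.23% from 50 to 100 FPKM and 9.34% above. Subunit sums ran from 21.3 FPKM for the l subunit, listed as *eif3s6ip*, to 148 FPKM for the j subunit in wild-type, and from 19.7 FPKM for *eif3g* to 166 FPKM for the j subunit in MZ*eomesa* embryos. Log2 ratios of the sums spanned only -0.31 for *EIF3K* to 0.17 for *eif3s6ip*. The a subunit, listed as *eif3s10*, had 132 and 131 FPKM, and the i subunit, listed as *eif3s2*, had 131 and 121 FPKM. Of single genes, *eif3hb* came nearest to the limit with 3.52 and 5.21 FPKM (log2 ratio 0.56), while its stronger partner *eif3ha* had 22.4 and 17.9 FPKM in a span shared with 3 genes. *EIF3B (2 of 2)* was near 0 in both groups, at 0.0387 and 0.0559 FPKM.

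**Figure D3:**
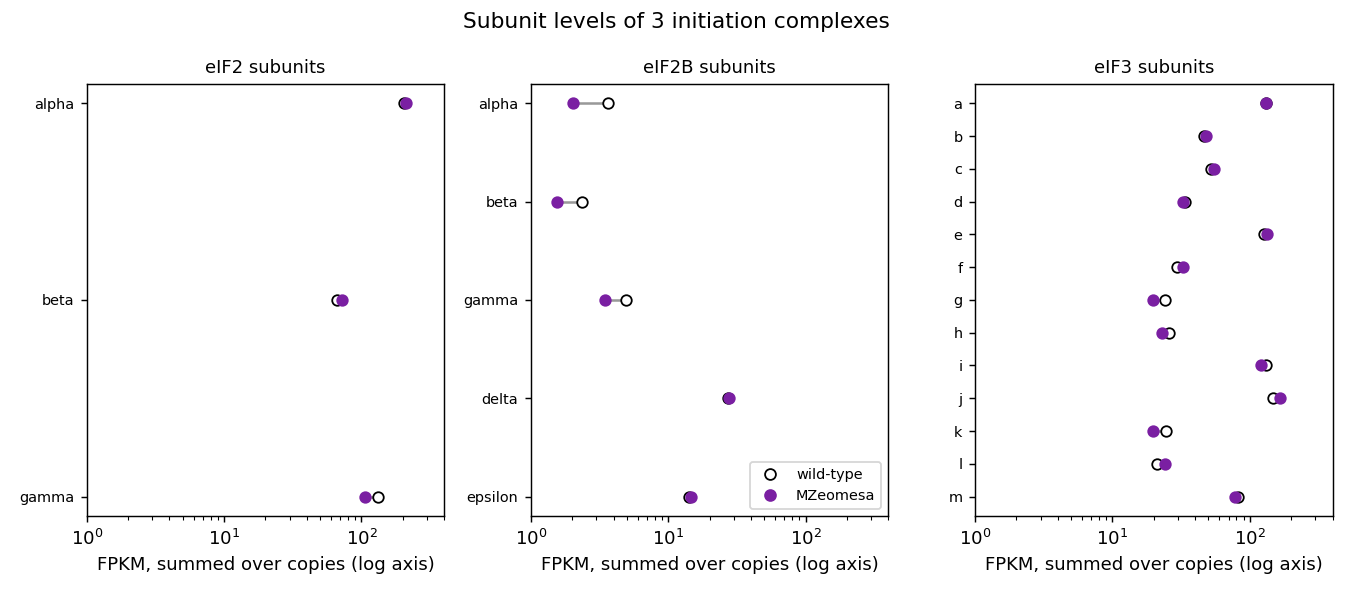
FPKM (x axis, log) of each subunit of eIF2, eIF2B and eIF3, summed over the gene copies of a subunit; open points are wild-type and filled points MZ*eomesa*, 1 combined value each, joined by a line. The 13 eIF3 subunits and the 3 eIF2 subunits overlap or nearly so, while the alpha, beta and gamma subunits of eIF2B lie to the left in MZ*eomesa* embryos.

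The remaining genes with initiation factor symbols included the largest difference of all members. *EIF1AD* (ENSDARG00000016280, chromosome 14, 8421482 to 8427321), named for a domain shared with eIF1A, had 2.97 FPKM in wild-type against 7.54 FPKM in MZ*eomesa* embryos, 2.54-fold higher. The eIF1A genes proper did not follow, with 155 and 168 FPKM for *eif1axb* and 92.8 and 102 FPKM for *eif1axa*. *eif2d* (ENSDARG00000012929, chromosome 8, 38559756 to 38573986), which can deliver initiator tRNA without eIF2, had 15.7 and 10.2 FPKM, 1.53-fold lower, just past the limit. *EIF2A*, the product of which has been given a similar role, had 12.0 and 8.99 FPKM (log2 ratio -0.42), in a span shared with 1 gene. A second eIF1 gene, *eif1b*, had 248 and 344 FPKM (log2 ratio 0.47). *eif5*, which triggers GTP hydrolysis by eIF2, *EIF5B*, which joins the ribosomal subunits, and *eif6*, which keeps free large subunits apart, had log2 ratios of -0.12, 0.23 and 0.08. *eif5a* and *eif5a2*, now known mainly as elongation factors, had 279 and 217 FPKM in wild-type against 243 and 197 FPKM in MZ*eomesa* embryos.

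Of the 5 genes for poly(A)-binding proteins above the minimum, 1 was at least 1.5-fold lower and 0 higher, beside 10.5% and 12.2% of all genes. *pabpc1a* had 590 FPKM in wild-type against 741 FPKM in MZ*eomesa* embryos (log2 ratio 0.33). Its paralogue *pabpc1b* (ENSDARG00000021140, chromosome 19, 12744069 to 12767891) had 9.55 and 4.86 FPKM, 1.96-fold lower, and *pabpc1l*, whose *Xenopus* counterpart is the embryonic poly(A)-binding protein, had 79.8 and 59.4 FPKM (log2 ratio -0.43). *pabpc1a* thus held 86.8% of the FPKM of these 3 genes in wild-type against 92.0% in MZ*eomesa* embryos. *pabpn1*, whose nuclear product sets tail length at synthesis, was level at 128 FPKM in wild-type against 132 FPKM in MZ*eomesa* embryos. Its relative *pabpn1l* was level too, at 184 FPKM in wild-type against 171 FPKM in MZ*eomesa* embryos. *pabpc4* was near 0 in both groups, at 0.0154 and 0.0200 FPKM.

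The Igf2bp proteins, which protect bound mRNAs from decay, and Ybx1, which coats mRNA and in zebrafish represses translation of the maternal Nodal transcript *ndr1*, had 4 genes above the minimum. Of these *igf2bp1* alone was 1.5-fold apart, where 22.6% of all genes above the minimum were. *igf2bp3* was the main Igf2bp gene, at 103 FPKM in wild-type against 88.1 FPKM in MZ*eomesa* embryos. *igf2bp1* (ENSDARG00000061478, chromosome 3, 23815585 to 23866356) had 13.8 and 24.4 FPKM, 1.77-fold higher, so that the ratio of *igf2bp3* to *igf2bp1* was 7.44 in wild-type against 3.61 in MZ*eomesa* embryos. *igf2bp2a* was at 2.80 and 2.08 FPKM and *igf2bp2b* at 0.138 and 0.233 FPKM. *ybx1* had 342 and 467 FPKM (log2 ratio 0.45).

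The repressors of initiation act on eIF2 or on eIF4E. Of the kinases that phosphorylate eIF2 alpha, *eif2ak3*, the sensor of unfolded protein in the endoplasmic reticulum, had 27.3 and 29.4 FPKM, and *eif2ak1*, the haem-regulated kinase, 23.5 and 17.1 FPKM in a span shared with 1 gene. *eif2ak4* (ENSDARG00000077010, scaffold Zv9_NA561, 49489 to 81585), which senses amino acid shortage, had 2.76 and 1.77 FPKM, 1.56-fold lower. *eif2ak2*, activated by double-stranded RNA, was below the minimum at 0.627 and 0.924 FPKM. The 4E-binding proteins keep eIF4E from eIF4G, and *eif4ebp3l* was the strongest of their 4 genes, with 160 and 224 FPKM (log2 ratio 0.49). *eif4ebp2* with 92.1 and 88.5 FPKM, *eif4ebp1* with 39.2 and 38.0 FPKM and the transporter gene *eif4enif1* with 34.9 and 33.6 FPKM were within a log2 ratio of 0.06 of wild-type, and *eif4ebp3* had 18.4 and 23.7 FPKM.

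The deadenylase genes were carried by single strong paralogues. *cnot8*, of the Caf1 type, had 307 FPKM in wild-type against 333 FPKM in MZ*eomesa* embryos, and *cnot6*, of the Ccr4 type, 121 and 131 FPKM. *cnot7* (ENSDARG00000032116, chromosome 14, 31283386 to 31294483), the other Caf1 gene, had 5.28 and 3.25 FPKM, 1.62-fold lower, and the ratio of *cnot8* to *cnot7* was 58.2 in wild-type against 102 in MZ*eomesa* embryos. The change in this ratio rests mostly on the low values of *cnot7*. Of all genes with a mean from 1 to 5 FPKM, 36.5% were at least 1.5-fold apart. With a pseudocount of 1 FPKM *cnot7* fell inside the limit, at a log2 ratio of -0.56. The scaffold gene *cnot1* had 82.9 and 77.2 FPKM in a span shared with 5 genes, *CNOT2* 83.6 and 83.1 FPKM, *cnot3b* 53.4 and 58.3 FPKM and *cnot3a* 30.6 and 32.4 FPKM. The 2 copies of *CNOT4*, the ubiquitin ligase associated with the complex, were nearly equal to each other in both groups, at 44.6 and 43.2 FPKM in wild-type against 30.2 and 29.3 FPKM in MZ*eomesa* embryos. Their log2 ratios were both -0.56, just inside the limit. They lie on different chromosomes, 4 and 25, and since the authors' estimation divides reads that map to several places, it was not tested whether the copies are independent measurements. *cnot10* had 21.2 and 17.5 FPKM (log2 ratio -0.28). *pan2*, the catalytic subunit of the other deadenylase, had 26.6 and 21.7 FPKM and its adaptor *pan3* 20.3 and 21.9 FPKM.

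The Dcp1 and Dcp2 genes were weak beside the strongest deadenylase genes, and *cnot8* stood 26.1-fold above *dcp2* in wild-type. *dcp2*, the decapping enzyme, had 11.8 and 14.1 FPKM, a second copy on the same chromosome 9.28 and 10.5 FPKM, and the activators *dcp1b* and *dcp1a* 5.09 and 3.60 FPKM in wild-type against 6.75 and 3.28 FPKM in MZ*eomesa* embryos. None of the 4 reached 1.5-fold, where 22.6% of all genes above the minimum did. *tut1* (ENSDARG00000057321, chromosome 12, 11416759 to 11431087), a terminal uridylyltransferase best known for the U6 small nuclear RNA, had 17.5 and 26.8 FPKM, 1.53-fold higher.

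Of the proteins that choose which mRNAs are stored or silenced, *pum2*, of the Pumilio family, had 28.6 and 41.1 FPKM (log2 ratio 0.52), inside the limit. Cpeb proteins bind a U-rich element and recruit either deadenylases or a cytoplasmic poly(A) polymerase. Among the 5 Cpeb genes caught by symbol, none of them named *cpeb1*, nearly all expression came from genes named *cpeb4*. Of these, *cpeb4* itself had 66.8 and 58.7 FPKM. A pair of copies on chromosome 21 had 21.4 and 22.8 FPKM in wild-type against 24.4 and 27.1 FPKM in MZ*eomesa* embryos. *cpeb3* and *CPEB2* were under 0.3 FPKM in both groups. The 5 Argonaute genes were led by *eif2c4* at 87.4 and 109 FPKM, and their log2 ratios ran from -0.17 for *EIF2C1* to 0.32 for *eif2c4*.

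Within the families formed here, where a paralogue was at least 1.5-fold apart, the leading gene was not. The members were put into 27 families of 2 to 5 paralogues above the minimum, a grouping made after their values were seen. The 2 *eif2b1* rows were left out, since the weaker was under the minimum. Summed, they had 3.62 FPKM in wild-type against 2.02 FPKM in MZ*eomesa* embryos (log2 ratio -0.85), and the stronger row was itself 1.85-fold lower. The leading gene was taken as the highest in wild-type, often several-fold above its paralogues, so that its keeping this place says little. The same gene was the highest of its family in both groups of embryos in all 27, and none of these 27 genes differed by 1.5-fold. Of the 40 other family members 6 did, *eif4ea*, *eif4a2*, *eif2s1*, *pabpc1b*, *igf2bp1* and *cnot7*. Their level in wild-type lay between 7.44-fold (*igf2bp1*) and 68.1-fold (*eif4a2*) below that of the leading paralogue, and all 6 were among the 16 with a mean under 20 FPKM. Of all genes, 36.5% from 1 to 5 FPKM, 24.6% from 5 to 10 FPKM and 18.3% from 10 to 20 FPKM were that far apart, against 12.5% from 20 to 50 FPKM, 8.23% from 50 to 100 FPKM and 9.34% above, and only 2 of the 27 leading genes had a mean under 20 FPKM. Level and place in the family go together here, with a median of 103 FPKM for leading and 24.8 FPKM for other members, and their parts were not told apart. None of the 27 family sums differed by 1.5-fold. This says little, since the leading gene weighs most in each sum and no leading gene differed. The log2 ratios of the sums ran from -0.56 for *CNOT4* to 0.36 for *EIF4G1*.

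**Figure D4:**
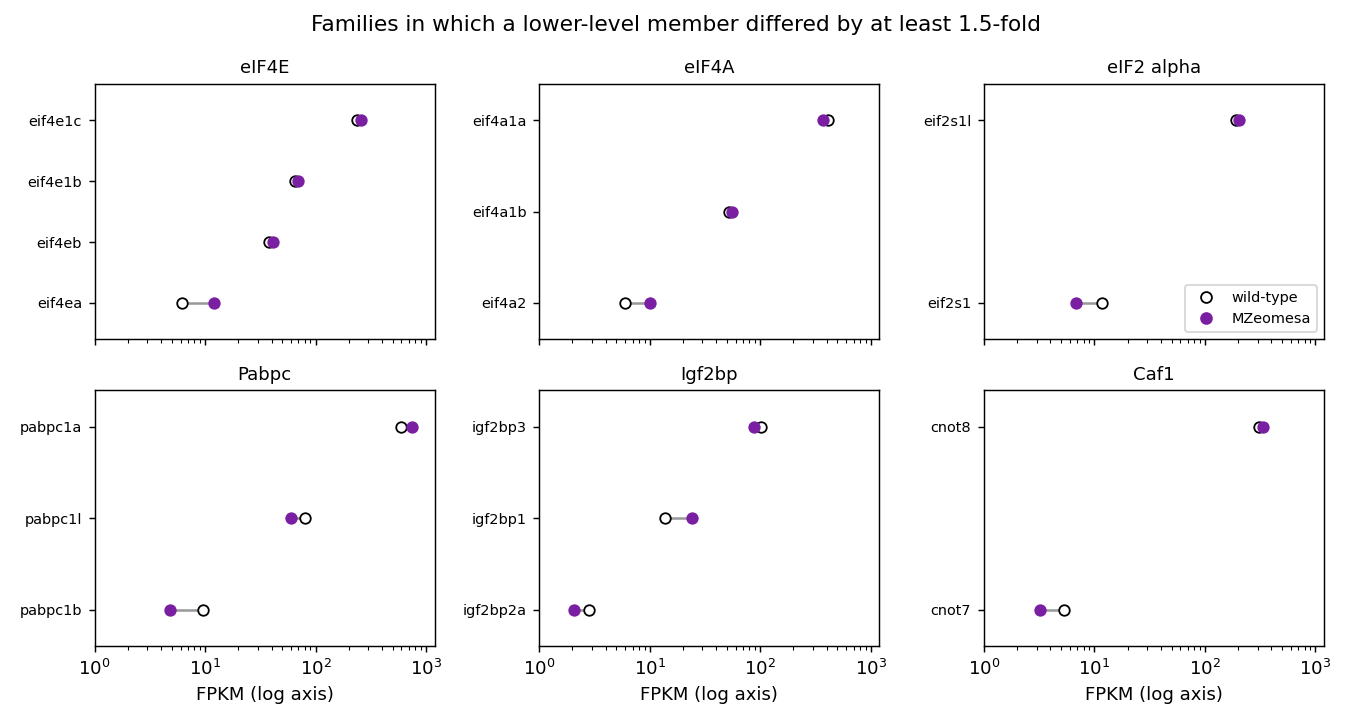
FPKM (x axis, log) of every paralogue above the minimum in the 6 families that hold a lower-level member at least 1.5-fold apart; open points are wild-type and filled points MZ*eomesa*, 1 combined value each. The leading gene of each family nearly overlaps between the groups, whereas *eif4ea*, *eif4a2* and *igf2bp1* lie to the right and *eif2s1*, *pabpc1b* and *cnot7* to the left in MZ*eomesa* embryos.

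Other genes of the same pathways, taken from lists and not by the naming rule, included few that differed, where 22.6% of all genes above the minimum did in either direction. Of 24 rows for tail and deadenylation genes above the minimum, 0 were at least 1.5-fold higher and 1 lower, namely *papd7*, a poly(A) polymerase gene, with 15.2 and 7.94 FPKM. *btg4*, an adaptor that brings Ccr4-Not to maternal mRNA in the mouse, had 110 and 108 FPKM, and the uridylyltransferase genes *zcchc11* and *ZCCHC6* had 59.2 and 48.8 FPKM in wild-type against 63.3 and 63.5 FPKM in MZ*eomesa* embryos. Of 17 decapping and decay genes and of 13 storage and oocyte translation genes, 0 differed in either direction. These genes all had a mean of at least 10 FPKM, and 13.1% of all genes at that level differed. The median log2 ratios of the tail, decay and storage lists were 0.04, -0.05 and 0.09, beside -0.01 for all genes. Whether the lists differ from the members was not tested. *xrn1*, the exonuclease that follows decapping, had 61.1 and 77.8 FPKM, *edc3*, an enhancer of decapping, 17.8 and 25.5 FPKM, and *zar1*, an oocyte regulator of translation, 24.1 and 17.5 FPKM.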

How the data were processed

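Per the submitters' processing notes and methods, the authors mapped single reads from poly(A) RNA to Zv9 with TopHat2 2.0.5 and ran Cufflinks with options that divide reads mapping to several places. The annotation release is not given in the sources used here. Their deposited table gives 1 FPKM value per gene and group, so depth is unknown and no interval was computed. It has 0 columns of per-sample values. The authors' fold changes, p-values and q-values were not used.

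Log2 ratios of MZ*eomesa* to wild-type were computed without a pseudocount where the mean of both groups reached 1 FPKM, leaving out 85 estimates marked as failed or as holding too much data. Spans and chromosomes are as listed, on Zv9. Members and lists were chosen with earlier results of these data known. Named were all members past 1.5-fold, the extremes of each role group, small groups in full and the paralogues of named members. Current symbols were found for 93 of 111 members. The counting was tested on simulated data. Alternatives were pseudocounts, minima, centring, a 2-fold limit and leaving out genes that share a span. Python 3.11.15, pandas 2.3.3, numpy 2.4.6 and matplotlib 3.10.9 were used. Sequences were not used here. The result for 1 member is not reported here, though counts over all members include it.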

Additional observations from a re-analysis of the deposited data

How the results depend on the processing

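The counts of members at least 1.5-fold apart depended on the minimum and on the pseudocount, and the medians did not. With a pseudocount of 1 FPKM the 7 lower members became 3, since *eif2d*, *cnot7*, *eif2b2* and *eif2ak4* then fell inside the limit at log2 values from -0.57 to -0.40, and 5 were still higher. The share of all genes 1.5-fold apart in either direction also dropped, to 16.5% from 22.6%. With a minimum mean of 10 FPKM, 2 were higher and 1 lower of 88, beside 13.1% of all genes. With a 2-fold limit, 1 was higher and 0 lower, beside 9.20% of all genes. With a pseudocount of 0.1 FPKM, no minimum, centring on the median, or leaving out genes that share a span, the counts stayed at 4 to 7 higher and 6 to 8 lower, beside 21.9% to 37.8% of all genes, the latter with no minimum. The median log2 ratios of activators and of decay factors moved by less than 0.1 under every alternative run. Centring subtracts the same median of all genes, -0.01, from every ratio, so it could not move any ratio by 0.1. A pseudocount of 1 FPKM moved 9 of the 104 single ratios by more than 0.1. Placing the Argonaute genes with the decay factors was chosen after seeing the data. No paired analysis was possible because the table combines the samples of each group, and for the same reason no replicate could be left out. Unknown depth limits what can be said of members under 10 FPKM.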

Other observations

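The later steps of translation and the kinases upstream of initiation, taken from lists in the same way, are given as values. *eef1a1l1*, the elongation factor that brings tRNA to the ribosome, was above every initiation factor at 2213 FPKM in wild-type against 2620 FPKM in MZ*eomesa* embryos. *eef1g* and *eef1b2*, subunits of its exchange factor, were below wild-type, with 136 and 134 FPKM in wild-type against 105 and 106 FPKM in MZ*eomesa* embryos, log2 ratios of -0.38 and -0.33. *eef2b*, the translocation factor, had 517 and 483 FPKM, and *gspt1l*, a termination factor, 246 and 254 FPKM. Of 7 elongation and termination genes above the minimum, and of 7 upstream kinase genes, 0 differed by 1.5-fold in either direction. Of all genes above the minimum 22.6% did, and of those with a mean of at least 10 FPKM 13.1%. The median log2 ratios of these lists were -0.10 and -0.19, beside -0.01 for all genes. *mtor*, the kinase that releases eIF4E from its binding proteins, was low at 2.79 and 2.34 FPKM, while *rps6kb1b*, the S6 kinase gene downstream of it, had 145 and 149 FPKM. Of the genes for the kinases that phosphorylate eIF4E, *mknk1* had 49.9 and 35.5 FPKM, *mknk2a* 51.9 and 41.2 FPKM and *mknk2b* 40.5 and 51.1 FPKM.

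Several members are listed in more than 1 copy on the same chromosome. *dcp2* and *DCP2 (2 of 2)* on chromosome 10 and the *CPEB4* copies on chromosome 21 had similar levels, whereas the *eif2b1* rows on chromosome 5 did not. Whether each row is a separate gene was not tested.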
